A study of Mus musculus with 6 samples.

Results

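The genes described here are 10 genes for antimicrobial proteins of skin, found by symbol among the 32285 genes of the count tables, and all 10 were present. They are Defb6, Slpi, Wfdc12, Reg3g, Lcn2, Camp, S100a8, S100a9, Lyz1 and Lyz2. Their RNA was measured by single-cell RNA sequencing (droplet barcoding of single cells, 3' libraries) of enzymatically digested skin from Balb/c mice, an inbred strain. Epicutaneous sensitization, the application of an agent onto the skin, lasted 10 days, and the skin was taken 2 days later. The 3 EC-OVA libraries are from mice labelled OVA-sensitized (OVA: ovalbumin, a protein allergen), and the 3 EC-SAL libraries are from mice labelled as the control. No genetic change is named in either group, and neither age nor sex was used here.

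The tables held 38206 cell barcodes with 25350813 to 33650630 UMIs (unique molecular identifiers, counted molecules) per library. Of these barcodes 24562 were kept as cells, 13500 from EC-SAL and 11062 from EC-OVA skin. Between 36.6% and 39.0% of the barcodes of an EC-SAL library and between 32.7% and 34.5% of an EC-OVA library were left out. Pairs of libraries shared 33 to 87 barcode sequences. The labels name the cells CD4, but only 414 kept cells had a lymphoid marker profile, and most had profiles of skin structural cells. Cells were therefore grouped by marker genes into classes, and every class name below stands for cells with that marker profile. There were 5313 keratinocyte-like cells in EC-SAL and 2428 in EC-OVA skin. The fibroblast-like cells numbered 2700 and 3118, and the myeloid cells, macrophage-like, monocyte-like, dendritic and Langerhans-like cells together, numbered 746 and 1231. The 10 genes were kept out of the clustering and of the marker lists. Levels are CPM, the UMIs of a gene per 1000000 UMIs of the class in a library. The labels do not say that the libraries are from separate animals, so the p-values measure only the spread between libraries, which may be technical.

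Antimicrobial proteins are secreted or released onto the skin surface and into the follicle openings, where they kill or starve microbes, and several of them also restrain proteases or signal to immune cells. Epithelial cells make some at rest and others after cytokines such as IL-17A, IL-22 and IL-1 act on them. Neutrophils and macrophages carry further ones as stored or steadily secreted proteins, so the amount of such RNA in a piece of skin depends on which cells it holds.

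Members that are neighbours in the genome were read at the sequence level first, because a short 3' read can be assigned between close copies only where they differ. Coordinates are those of build mm10 in the GENCODE M21 annotation. Lyz1 (ENSMUSG00000069515, chr10:117287797-117292868, minus strand) and Lyz2 (ENSMUSG00000069516, chr10:117277331-117282321, minus strand) lie 5475 bases apart. In the last 500 bases of their transcripts, 80 of 451 windows of 50 bases in Lyz1 also occurred in Lyz2, and 76 of 451 in Lyz2 occurred in Lyz1. A read that lies within such a window cannot tell the pair apart, and how the authors' counting treated such reads was not examined. None of the other 8 members shared such a window with another gene. Shown next are the bases from 250 to 51 before the RefSeq start of each lysozyme gene (RefSeq sequence, GRCm38.p6, chr10:117292919-117293118 and chr10:117282323-117282522, both minus strand), since both genes change in myeloid cells below. Capitals mark bases that differ in the alignment. The windows were identical at 155 of 200 bases, or 77.5%.
Lyz1: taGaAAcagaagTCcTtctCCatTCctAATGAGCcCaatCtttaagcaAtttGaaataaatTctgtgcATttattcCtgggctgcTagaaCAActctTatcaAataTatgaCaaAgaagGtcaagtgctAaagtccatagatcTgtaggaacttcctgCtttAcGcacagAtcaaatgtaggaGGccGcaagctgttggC
Lyz2: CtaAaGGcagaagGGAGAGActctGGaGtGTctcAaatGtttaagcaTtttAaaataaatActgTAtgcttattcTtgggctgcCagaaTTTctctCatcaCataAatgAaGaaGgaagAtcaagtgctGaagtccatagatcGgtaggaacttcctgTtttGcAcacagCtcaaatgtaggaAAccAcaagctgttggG

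S100a8 (ENSMUSG00000056054, chr3:90668978-90670035, plus strand) and S100a9 (ENSMUSG00000056071, chr3:90692632-90695721, minus strand) lie 22596 bases apart and point towards each other. The 150 bases before their most upstream annotated starts (RefSeq, GRCm38.p6, chr3:90668828-90668977, plus strand, and chr3:90695722-90695871, minus strand) are shown because both genes rise in the sum of all cells below. Capitals mark a match to TTNNGNAA or its reverse TTNCNNAA, a pattern that C/EBP factors can bind, searched on both strands.
S100a8: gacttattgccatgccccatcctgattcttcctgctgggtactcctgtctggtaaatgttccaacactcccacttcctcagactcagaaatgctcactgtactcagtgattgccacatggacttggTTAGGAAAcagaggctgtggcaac
S100a9: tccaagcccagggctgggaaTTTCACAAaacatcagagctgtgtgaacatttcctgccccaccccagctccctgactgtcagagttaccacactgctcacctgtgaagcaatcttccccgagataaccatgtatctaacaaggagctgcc
Each window holds 1 match. The pattern is common, and 22.75% of 32851 mouse promoters of the same length hold it.

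The remaining members lie apart. Slpi (ENSMUSG00000017002, chr2:164354070-164389095, minus strand) and Wfdc12 (ENSMUSG00000042845, chr2:164189231-164190608, minus strand) are 163461 bases apart, and Wfdc12 is overlapped by an annotated antisense gene, A730032A03Rik. Lcn2 is ENSMUSG00000026822 at chr2:32384633-32388252 (minus strand), Reg3g is ENSMUSG00000030017 at chr6:78466269-78468872 (minus strand), Defb6 is ENSMUSG00000050756 at chr8:19225478-19228209 (plus strand) and Camp is ENSMUSG00000038357 at chr9:109847379-109849617 (minus strand).

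Most members had 1 main source, and the sources differed. Defb6, a beta-defensin, came almost entirely from keratinocyte-like cells, which held 98.3% of its UMIs in EC-SAL and 98.4% in EC-OVA skin. Wfdc12, a small protein with a whey acidic protein domain, came from fibroblast-like cells, with 90.5% and 94.7% of its UMIs. Lyz1 and Lyz2, the lysozymes that cut bacterial cell walls, came from myeloid cells, which held 97.6% and 93.0% of the Lyz1 UMIs and 91.3% and 94.5% of the Lyz2 UMIs. Slpi and Lcn2 had several sources. Slpi, a secreted inhibitor of serine proteases, was divided between keratinocyte-like cells (68.1% of UMIs in EC-SAL, 44.0% in EC-OVA) and cartilage and tendon-like cells (15.4% and 39.2%). The cartilage and tendon-like share was 23.3%, 48.4% and 43.0% in the EC-OVA libraries. It rested on few cells, and 1 of 1439 held 448 of the 2596 UMIs. Lcn2, which withholds iron from bacteria by binding their siderophores, was divided between keratinocyte-like (46.0% and 38.7%), lymphatic endothelial-like (35.5% and 40.2%) and sebocyte-like cells (12.6% and 10.1%). Some clusters within the keratinocyte-like class carried markers of other classes, as described below.

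**Figure D1:**
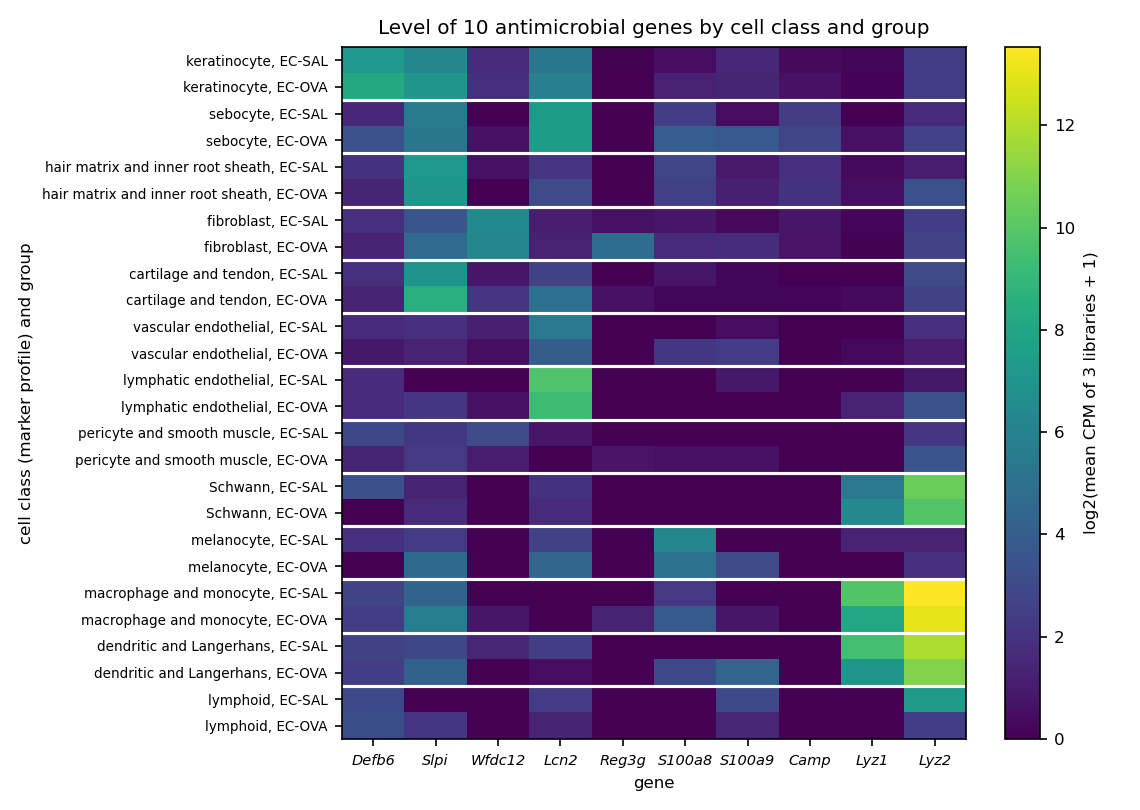
Level of each of the 10 genes (columns) in 13 cell classes of EC-SAL and EC-OVA skin (lines), as log2 of the mean CPM of 3 libraries plus 1. Lyz2 is brightest in the macrophage, monocyte and dendritic classes and is also bright in Schwann-like cells, Lcn2 is brightest in lymphatic endothelial-like cells, Defb6 in keratinocyte-like cells and Slpi in cartilage and tendon-like cells of EC-OVA skin. Neutrophil-like cells are not plotted, since EC-SAL skin held only 3.

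In keratinocyte-like cells, Slpi and Defb6 were higher after OVA. Of the 10 members 6 passed the filter on low counts there, and 2 of these rose and none fell, against 1.94% of all 11747 genes tested that rose and 2.89% that changed in either direction. The libraries of both groups did not overlap for 21.9% of those genes. Slpi had 77.0, 92.3 and 71.0 CPM in the EC-SAL libraries and 140.0, 128.8 and 132.1 CPM in the EC-OVA libraries. All 3 EC-OVA values lay above all EC-SAL values. The log2 change was 0.74 ± 0.087 (SE), with an adjusted p of 0.00377 in edgeR's quasi-likelihood test with Benjamini-Hochberg adjustment over all genes tested, the test and adjustment used for every adjusted p below unless another is named. Defb6 had 127.7, 159.3 and 159.1 CPM in EC-SAL and 187.0, 364.8 and 312.2 CPM in EC-OVA skin. The groups did not overlap, but the EC-OVA libraries spread widely, and the first was close to the controls. Its log2 change was 0.96 ± 0.21, with an adjusted p of 0.0427, which was 0.0943 with DESeq2 and between 0.0804 and 0.160 when any library other than the first EC-OVA library was left out.

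Lcn2 in the same cells had 47.0, 38.4 and 30.9 CPM against 73.6, 51.7 and 53.1 CPM. The groups did not overlap, yet the log2 difference of 0.62 ± 0.14 missed the threshold with an adjusted p of 0.0506. It passed with DESeq2 (0.0133), with doublets (barcodes that may hold more than 1 cell) kept (0.0417), with looser cell filters (0.0433), with the members kept in the clustering (0.0492), at a clustering resolution of 0.6 or 1.5 (0.0482 for both), without the low-count filter (0.000337) and with the replicate number as a block (0.00197). With each library left out in turn it lay between 0.0505 and 0.160, and with the same mix of clusters in every library the difference was 0.25 (adjusted p 0.549). S100a9, Wfdc12 and Lyz2, each with under 10 CPM, had log2 differences of -0.15 ± 0.45, 0.21 ± 0.31 and 0.04 ± 0.44, and none passed. The other 4 members, Reg3g, S100a8, Camp and Lyz1, were too low in keratinocyte-like cells to be tested.

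The members were unevenly placed among the keratinocyte-like cells, which fell into further clusters. Defb6 was highest in cells with upper hair follicle markers, with a mean of 2155 ± 436 CPM (SD, n = 3) in EC-SAL and 3125 ± 844 CPM in EC-OVA skin. A Defb6 UMI was seen in 63.7% of 306 such cells in EC-SAL and in 75.0% of 152 in EC-OVA skin, against 1.22% and 0.866% of fibroblast-like cells, which are not a known source. Of the 12 clusters 4 stayed unnamed. Slpi was highest in 1 of these, 1015 cells led by Tagln, Slc7a8 and Acta2, at 359 ± 121 and 396 ± 124 CPM. It followed in another, 683 cells led by Plin2, Akr1c18 and Ces1d, at 268 ± 52.8 and 373 ± 167 CPM, and in bulge and outer root sheath-like cells, at 200.1 ± 77.6 and 239 ± 110.0 CPM. Lcn2 was highest in the cluster led by Plin2, at 352 ± 41.3 and 390.0 ± 82.1 CPM. In basal-like cells all 3 genes were low, between 1.39 and 20.7 CPM on average. Tagln and Acta2 are on the marker list of pericytes and smooth muscle. The top 10 genes of the cluster led by Plin2 include Mgst1 and Pparg, which are on the sebocyte list. Both clusters were counted as keratinocyte-like in all sums and shares, and whether they hold other cell types was not tested.

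The make-up of the keratinocyte-like cells moved together with these results. The cluster led by Tagln was 10.8% ± 0.615 (SD, n = 3) of them in EC-SAL and 18% ± 2.45 in EC-OVA skin, the cluster led by Plin2 was 7.40% ± 0.613 and 11.8% ± 1.36, and basal-like cells were 16.4% ± 0.780 and 11.2% ± 1.22. When cells were drawn so that every library had the same mix of clusters, the log2 difference was 0.31 for Slpi (adjusted p 0.278) and 0.78 for Defb6 (adjusted p 0.275). Within bulge and outer root sheath-like cells alone, which were 293 and 163, it was 0.30 for Slpi (adjusted p 0.833) and 0.94 for Defb6 (adjusted p 0.277). Within upper hair follicle-like cells it was 0.57 for Defb6 (adjusted p 0.999), beside far fewer cells and UMIs than in the whole class. The part of the cell mix in the results was not tested further. The shares of keratinocyte-like cells with a UMI, after thinning each cell to 1000 UMIs, were 4.19% and 6.61% for Slpi and 4.85% and 6.25% for Defb6, with exact permutation p-values (two-sided) of 0.1 and 0.2, where 0.1 is the smallest that 3 against 3 libraries allow.

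**Figure D2:**
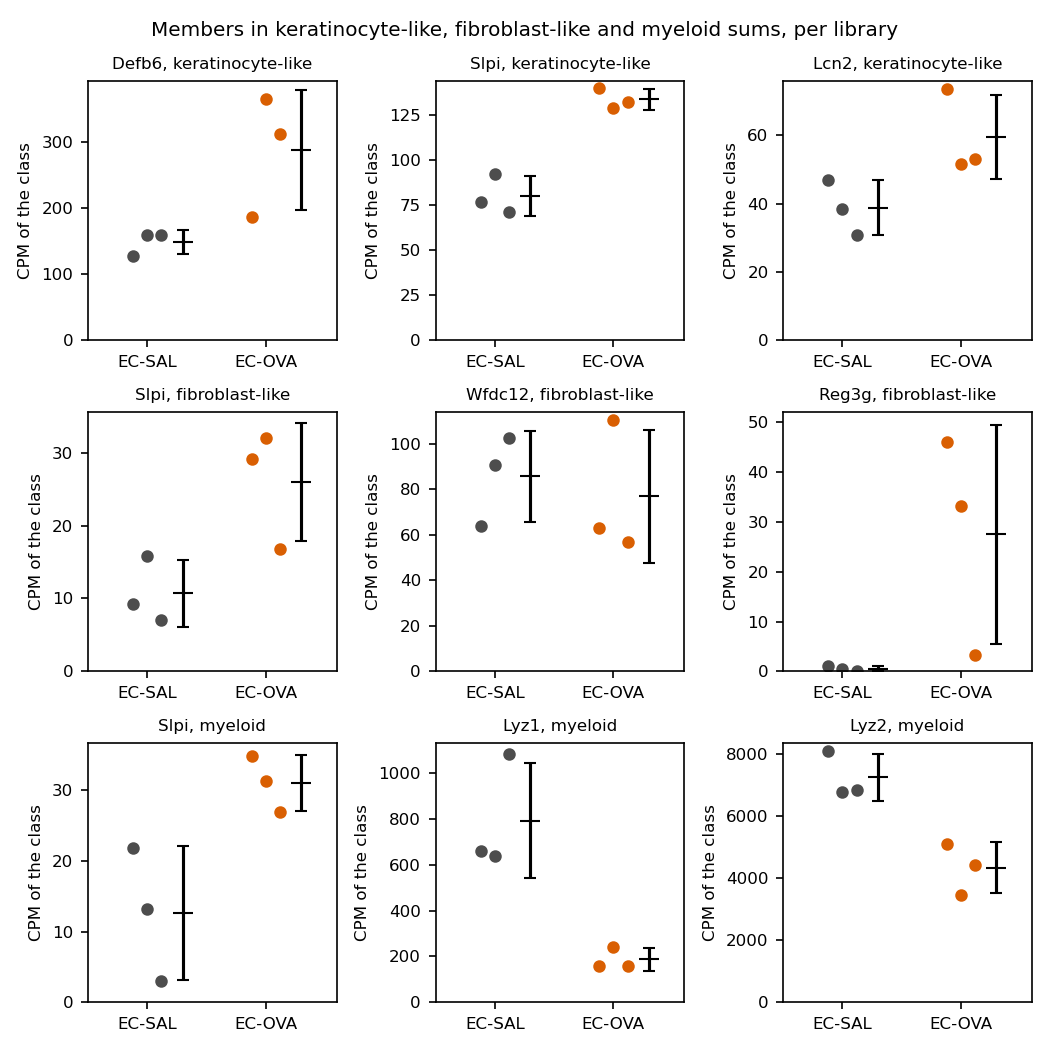
CPM of 9 pairs of gene and class in each library, EC-SAL in grey and EC-OVA in orange, with bars at the mean ± SD of 3 libraries. The groups overlap for Wfdc12 in fibroblast-like cells and lie apart in the other 8 panels.

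In fibroblast-like cells, Slpi and Reg3g were higher after OVA, while Wfdc12, the member with the highest level there, was not called. Of the 10 members 5 were tested and 2 rose, of which Reg3g passed the low-count filter only through its EC-OVA counts, against 4.82% of 11544 genes that rose and 8.44% called in either direction. The groups did not overlap for 25.1% of those genes. Wfdc12 had 63.8, 90.7 and 102.6 CPM in EC-SAL and 63.2, 110.7 and 56.9 CPM in EC-OVA skin. The groups overlapped, and the log2 difference was -0.12 ± 0.25 (adjusted p 0.835). It was seen in 12.4% and 11.7% of the cells, against 1.15% and 1.52% of keratinocyte-like cells, which were deeper (median 7251 and 7678 UMIs per cell, against 4510 and 5872). Slpi had 9.21, 15.8 and 7.05 CPM against 29.2, 32.0 and 16.8 CPM. The lowest EC-OVA value was close to the highest control value, and the log2 change was 1.31 ± 0.30 (adjusted p 0.0204). With doublets kept, the difference was 0.74 (adjusted p 0.303), with the same mix of clusters 0.62 (adjusted p 0.433), and without EC-SAL replicate 1 or 3 the adjusted p was 0.0981 or 0.0941. A Slpi UMI was seen in 1.74% and 4.36% of the cells, against 1.10% and 0.894% of vascular endothelial-like cells, which are not a known source. One fibroblast-like cluster, with 4 EC-SAL and 295 EC-OVA cells, held 224 of the 532 Slpi UMIs of the EC-OVA cells. Another, with 27 EC-SAL and 12 EC-OVA cells, was led by Krt14, Krt15 and Serpinb2 and had 13 keratinocyte markers raised. It stayed in the fibroblast-like sums, and its part in these values was not tested.

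Reg3g, a C-type lectin that binds the wall of Gram-positive bacteria and is induced by IL-17A and IL-22 in epithelia, was found in few cells. Its UMIs in fibroblast-like cells numbered 7 in all EC-SAL libraries together and 295, 239 and 22 in the EC-OVA libraries. These were 1.02, 0.48 and 0 CPM in EC-SAL and 46.0, 33.1 and 3.24 CPM in EC-OVA skin, so the groups did not overlap and EC-OVA replicate 3 was far below the other two. The fitted log2 change was 5.65 ± 1.23 (adjusted p 0.0157), a size that rests on the 7 control UMIs, and the adjusted p was between 0.0608 and 0.0690 when an EC-SAL library was left out. Only 4 of 2700 EC-SAL cells and 40 of 3118 EC-OVA cells held a UMI, and 2 cells held over 50% of the 556 EC-OVA UMIs, 1 of them 152. With the cell holding the most UMIs in each library left out, the counts were too low for a test. In the 5313 and 2428 keratinocyte-like cells it had 3 and 0 UMIs.

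In myeloid cells both lysozyme genes fell and Slpi rose. These were the 3 members tested there, of which Slpi passed the low-count filter only with its EC-OVA counts. In these sums 11.2% of 6506 genes were called in either direction and 28.7% had groups that did not overlap. Lyz1 had 658, 637 and 1080 CPM in EC-SAL and 160.0, 243 and 158 CPM in EC-OVA skin. Every EC-OVA value was far below every EC-SAL value, and the log2 change was -2.10 ± 0.22 (adjusted p 5.2e-05). Lyz2 had 8112, 6796 and 6836 CPM against 5117, 3477 and 4443 CPM. The groups again lay apart, with a log2 change of -0.77 ± 0.11 (adjusted p 0.000516). Lyz1 was seen in 25.7% of the EC-SAL and 13.9% of the EC-OVA cells, and Lyz2 in 90.3% and 86.2%, against 1.79% and 2.55% of keratinocyte-like cells. Lyz1 made up 7.50%, 8.58% and 13.6% of the lysozyme UMIs of the EC-SAL libraries and 3.03%, 6.53% and 3.44% of those of the EC-OVA libraries.

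Both lysozymes fell in macrophage and monocyte-like cells and in dendritic and Langerhans-like cells. The log2 change of Lyz1 was -1.83 ± 0.17 in the first (adjusted p 4.7e-07) and -2.30 ± 0.44 in the second (adjusted p 0.0041), where 8.76% and 10.6% of genes were called. For Lyz2 it was -0.52 (adjusted p 0.00925) and -0.96 (adjusted p 0.00027), and in macrophage and monocyte-like cells it missed the threshold with doublets kept (0.0670) or without EC-SAL replicate 2 (0.0665). The make-up of the myeloid cells also differed. A cluster of 502 cells led by Plau, Ccl2 and Ccl7, which stayed unnamed, was 44.3% ± 3.91 of the cells clustered again with the myeloid class in EC-SAL and 12.8% ± 5.15 in EC-OVA skin. Macrophage-like cells were 17.7% ± 1.42 and 28.7% ± 2.77, and monocyte-like cells were 3.79% ± 1.46 and 14.3% ± 0.865. The fall was also measured within single names, where 4.36% of genes were called in macrophage-like and 1.84% in type 2 conventional dendritic-like cells. The share of genes with groups that lay apart is not given for these names. The macrophage-like name covers several clusters, led by Folr2, Ccl8 and Birc5, with medians of 1499, 1020 and 5876 UMIs per cell. The part of their mix in the fall was not tested. In macrophage-like cells Lyz2 had 14811, 7812 and 10414 CPM in EC-SAL and 7396, 3655 and 5296 CPM in EC-OVA skin (log2 change -1.0 ± 0.25, adjusted p 0.0365), and Lyz1 changed by -1.85 ± 0.38 (adjusted p 0.0127). For Lyz2 all EC-OVA libraries lay below all EC-SAL libraries, the nearest pair at 7396 and 7812 CPM. In type 2 conventional dendritic-like cells Lyz1 had 1064, 1631 and 3414 CPM against 156, 603 and 234 CPM. EC-SAL replicate 3 was highest, the groups lay apart, and the log2 change was -2.65 ± 0.45 (adjusted p 0.0062). Lyz2 there changed by -0.85 ± 0.12 (adjusted p 0.00122). In the unnamed cluster led by Plau, which was not tested, Lyz2 had a mean of 10591 ± 862 and 7516 ± 1550 CPM and Lyz1 of 862 ± 207 and 314 ± 189 CPM.

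**Figure D3:**
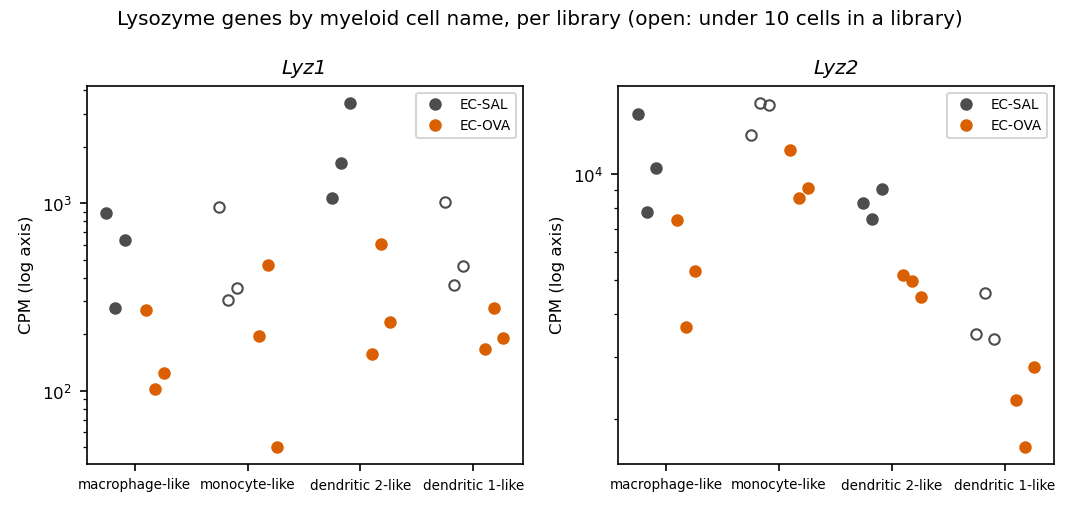
CPM of Lyz1 and Lyz2 (log axis) in 4 named kinds of myeloid cell, 1 point per library, open where a library had under 10 cells of that name. In macrophage-like and type 2 dendritic-like cells every EC-OVA point lies below every EC-SAL point for both genes.

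Slpi in myeloid cells had 21.8, 13.2 and 2.97 CPM in EC-SAL and 34.8, 31.3 and 27.0 CPM in EC-OVA skin, from 24 and 114 UMIs. Its EC-SAL counts alone would not have passed the low-count filter. The groups lay apart, the control libraries spread over a wide range, and the log2 change was 1.28 ± 0.38 (adjusted p 0.0425). It was 0.198 with DESeq2, 0.0614 with the members kept in the clustering, 0.149 with stricter cell filters, and between 0.0620 and 0.152 without any library other than EC-SAL replicate 1. Monocyte-like cells held 2 of the EC-SAL and 68 of the EC-OVA UMIs, beside the higher share of such cells given above, and the part of that share in the result was not tested. Defb6, whose UMIs were nearly all in keratinocyte-like cells, had 5.66 ± 2.97 and 4.48 ± 3.36 CPM in the same myeloid sums.

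S100a8 and S100a9 encode the subunits of calprotectin, which binds zinc and manganese and is stored in bulk by neutrophils. In the kept cells of EC-OVA skin their UMIs were mostly found in a small group of neutrophil-like cells. These numbered 2, 1 and 0 in the EC-SAL libraries and 21, 18 and 26 in the EC-OVA libraries. They were shallow, with a median of 649 UMIs per cell over both groups. In EC-OVA skin they held 690 UMIs of S100a8, or 78.9% of the UMIs of that gene in kept cells, at 16673, 12768 and 12499 CPM. They held 1296 UMIs of S100a9, or 87.4% of those in kept cells, at 30851, 21145 and 25207 CPM. The 3 EC-SAL cells held 25 and 42 UMIs, of 147 and 136 UMIs in all kept EC-SAL cells. More EC-SAL UMIs lay in melanocyte-like cells for S100a8 (51) and in keratinocyte-like cells for S100a9 (81, of which 22 in 1 cell). The level in neutrophil-like cells was not tested, since classes with under 10 cells in a library were left out of the tests. Camp, the precursor of the cathelicidin peptide that is packed into neutrophil granules, had no UMI in the 65 EC-OVA neutrophil-like cells, which allows a share of up to 4.62% of cells with a UMI at this shallow depth and sets no limit on cells that express the gene. In all, 42 and 45 Camp UMIs were counted, of which fibroblast-like cells held 10 and 13, keratinocyte-like cells 11 and 12, and sebocyte-like cells 11 and 12.

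The barcodes left out also held S100 RNA. They held 20 UMIs of S100a8 in EC-SAL and 543 in EC-OVA skin, of which 435 of the latter were in barcodes with under 300 genes. For S100a9 the numbers were 41, 870 and 710. In keratinocyte-like cells S100a9 was at 1.88 and 1.68 CPM on average. Melanocyte-like cells held some S100a8, with 39.1, 67.8 and 103 CPM in EC-SAL and 55.0, 17.9 and 29.8 CPM in EC-OVA skin, which overlapped (log2 difference -0.98 ± 0.50, adjusted p 0.343, with 2.86% of genes called there). In myeloid cells other than neutrophil-like ones, S100a9 had 0 and 44 UMIs, and 1 dendritic-like cell held 32 of them.

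**Figure D4:**
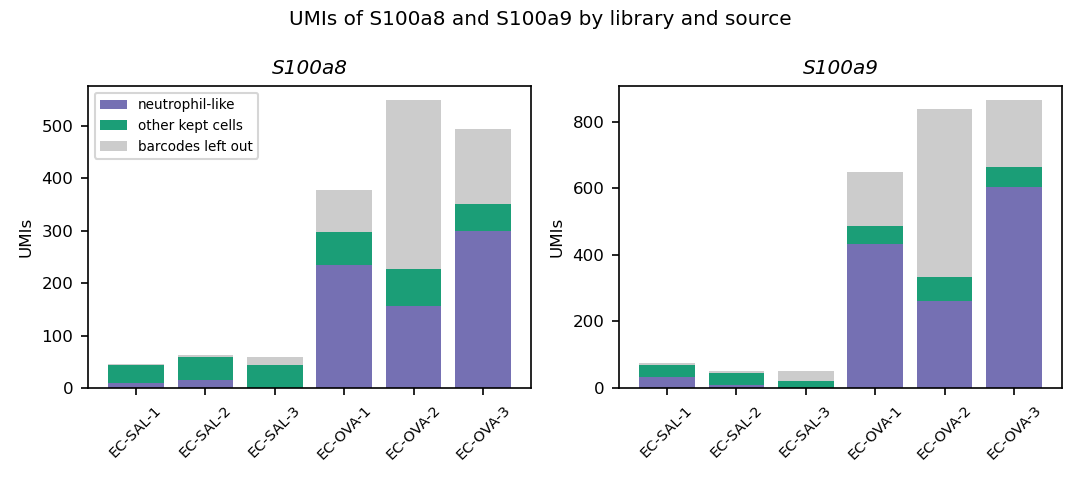
UMIs of S100a8 and S100a9 in each library, stacked by source: neutrophil-like cells, other kept cells, and barcodes left out. The EC-OVA libraries hold several times the UMIs of the EC-SAL libraries, with neutrophil-like cells and left-out barcodes as the tallest parts.

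In the sum of all kept cells of a library, all 10 members were tested, 5 rose and 1 fell, against 44.8% of all genes called. S100a8 had 1.56, 2.33 and 1.74 CPM in EC-SAL and 13.2, 9.77 and 15.7 CPM in EC-OVA skin (log2 change 2.72 ± 0.20, adjusted p 3.6e-05). S100a9 had 2.49, 1.74 and 0.869 against 21.5, 14.3 and 29.8 CPM (3.61 ± 0.34, adjusted p 0.000101). Both groups of libraries lay apart for both genes, but the share of all genes that do so in this sum is not given here. Reg3g had 10 UMIs in EC-SAL and 563 in EC-OVA cells and passed the low-count filter only through its EC-OVA counts. Its fitted log2 change was 5.92 ± 1.07 (adjusted p 0.00262), a size that rests on the 10 control UMIs. Slpi changed by 0.55 ± 0.12 (adjusted p 0.00578), Lyz1 by -0.93 ± 0.29 (adjusted p 0.0298) and Lyz2 by 0.28 ± 0.10 (adjusted p 0.045). The Lyz1 call was lost with DESeq2 (0.0549) or without EC-OVA replicate 1 or 3 or EC-SAL replicate 3 (0.0702 to 0.0997), and the Lyz2 call without any library other than EC-OVA replicate 2 (0.0519 to 0.144). Lyz2 thus rose in the whole sum and fell within myeloid cells, which were 746 of 13500 cells in EC-SAL and 1231 of 11062 in EC-OVA skin. In such sums fewer cells of a type and less RNA per cell cannot be told apart. Defb6, Lcn2, Camp and Wfdc12 had log2 differences of 0.12 ± 0.21, 0.05 ± 0.09, 0.25 ± 0.42 and 0.59 ± 0.26, with adjusted p-values of 0.673, 0.721, 0.664 and 0.0991.

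Outside the keratinocyte, fibroblast and myeloid classes, 11 further tests were made of members, of which 2 were higher and 1 lower after OVA. The share of all genes called was 1.72% in cartilage and tendon-like, 2.69% in vascular endothelial-like and 0.808% in lymphatic endothelial-like cells. The share of genes with groups that did not overlap is not given for these classes. Slpi in cartilage and tendon-like cells had 82.4, 135.7 and 141.5 CPM in EC-SAL and 203.5, 508.5 and 386.6 CPM in EC-OVA skin. The groups lay apart, the EC-OVA libraries spread widely, and the log2 change was 1.65 ± 0.29 (adjusted p 0.0125), although 4 of 1439 cells held over 50% of the 2596 EC-OVA UMIs. The adjusted p was between 0.0633 and 0.0718 without EC-OVA replicate 3 or EC-SAL replicate 1 or 2. In hair matrix and inner root sheath-like and in sebocyte-like cells the log2 differences of Slpi were -0.15 and -0.20 (adjusted p 0.957 and 0.913), where 0.0412% and 0.158% of all genes were called.

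Lcn2 had its highest level in lymphatic endothelial-like cells, with 1001, 887.5 and 799.7 CPM in EC-SAL and 604, 699 and 547 CPM in EC-OVA skin. The groups did not overlap, and the log2 difference of -0.54 ± 0.13 had an adjusted p of 0.0506, and of 0.000585 without EC-OVA replicate 2. In vascular endothelial-like cells it had 48.4, 45.2 and 40.8 CPM against 15.7, 18.1 and 11.8 CPM and fell (log2 change -1.58 ± 0.20, adjusted p 0.000667). In cartilage and tendon-like cells it had 7.77, 5.33 and 2.83 CPM against 28.1, 16.0 and 46.1 CPM and rose (2.49 ± 0.41, adjusted p 0.00927). Its EC-SAL counts there would not alone have passed the low-count filter. With the cell holding the most UMIs in each library left out, the last difference was 2.20 (adjusted p 0.0520), and without EC-SAL replicate 2 the adjusted p was 0.0747. In sebocyte-like cells it was 0.08 (adjusted p 0.932), with 165 and 173 CPM on average.

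**Figure D5:**
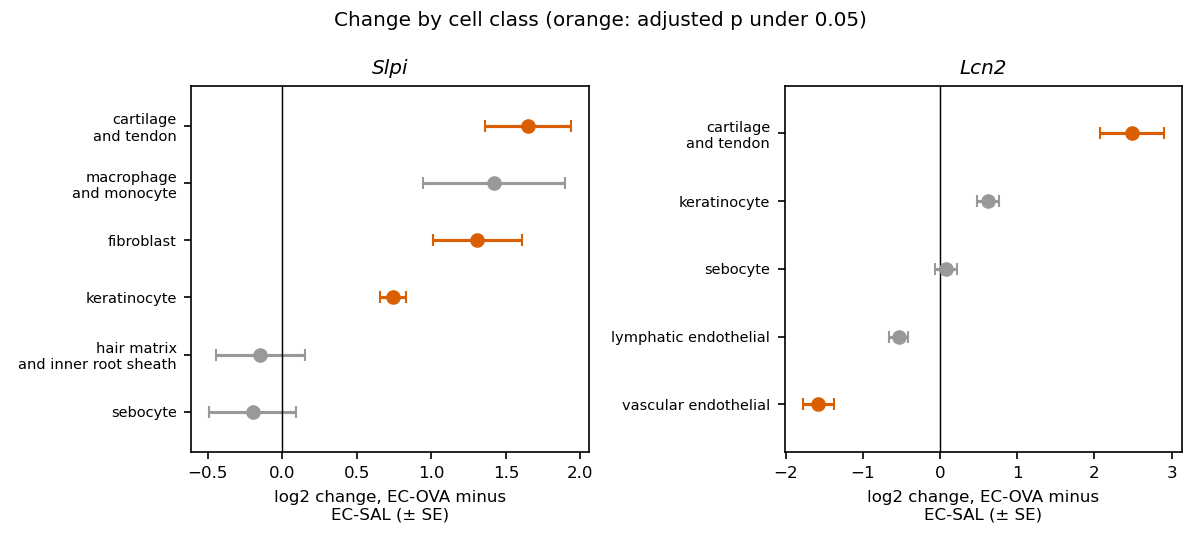
Log2 change of Slpi and Lcn2, EC-OVA minus EC-SAL, with its SE, in each class where the gene was tested; orange points have an adjusted p under 0.05. Slpi is above 0 in 4 of 6 classes, and Lcn2 runs from -1.58 in vascular endothelial-like to 2.49 in cartilage and tendon-like cells.

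The difference of the change between keratinocyte-like, fibroblast-like and myeloid cells was tested in 1 model of these classes together, with the library as a term. Between fibroblast-like and keratinocyte-like cells, where 5.48% of genes were called, the change of Defb6 was lower in fibroblast-like cells by a log2 of -1.71 ± 0.35 (adjusted p 0.000848). Fibroblast-like cells, not a known source, held only 34 and 32 of its UMIs, so a source is set against a level near the floor. With doublets kept, the Defb6 difference in fibroblast-like cells reversed to 1.02. Reg3g was also called, but keratinocyte-like cells held 3 and 0 of its UMIs, so the size of its difference is not given, and without EC-SAL replicate 1 the adjusted p was 1. For Slpi the difference was 0.54 ± 0.20 (adjusted p 0.112). No member was called between myeloid and keratinocyte-like cells or between myeloid and fibroblast-like cells, where 6.18% and 4.24% of genes were called. Pairs with other classes were chosen after their values were seen, and each had its own model with the library as a term. For Lcn2 the change was lower than in keratinocyte-like cells by -1.14 ± 0.12 in lymphatic endothelial-like cells (adjusted p 9.7e-15, 1.3% of genes called) and by -2.19 ± 0.22 in vascular endothelial-like cells (adjusted p 3.8e-12, 3.53% called). It was higher by 1.91 ± 0.33 in cartilage and tendon-like cells (adjusted p 0.000411, 3.51% called), as was that of Slpi by 0.87 ± 0.21 (adjusted p 0.0120), while that of Defb6 was lower by -1.79 ± 0.49 (adjusted p 0.0426). Cartilage and tendon-like cells held only 17 and 10 Defb6 UMIs. Against lymphatic endothelial-like cells, the change of Lcn2 in cartilage and tendon-like cells was higher by 3.03 ± 0.35 (adjusted p 4.6e-06, 0.443% called). For Wfdc12 the change in fibroblast-like cells was lower than in cartilage and tendon-like cells by -2.24 ± 0.61 (adjusted p 0.0464, 2.55% called), where the latter held 5 and 24 of its UMIs.

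Other genes around the members were counted by list. In keratinocyte-like cells 2.89% of all 11747 genes tested were called in either direction. Of 54 other antimicrobial effector genes 23 were tested in keratinocyte-like cells, and 5 rose and none fell, with a median log2 difference of 0.16 beside 0.0088 over all genes tested. The 4 with the smallest p were Sprr2a3, a small proline-rich protein (1.25 ± 0.15, adjusted p 0.00377), Cyba, an NADPH oxidase subunit (0.92, adjusted p 0.0122), Lce3c, a late cornified envelope protein (1.71 ± 0.30, adjusted p 0.0177), and Ptx3, a soluble pattern recognition protein (1.14, adjusted p 0.0214). Of 28 genes of the inducing pathway 19 were tested, and Cebpb, a transcription factor (0.36, adjusted p 0.0155), and Cxcl1, a neutrophil chemokine (0.28, adjusted p 0.0424), rose, with a list median of 0.22. Of 20 receptors and targets 8 were tested, with a median of 0.28, and 1 fell, the matrix metalloprotease gene Mmp2 (-0.34, adjusted p 0.0111).

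In fibroblast-like cells 8.44% of all 11544 genes tested were called in either direction. There 16 of the effectors were tested, with 4 up and 1 down and a median of 0.036 beside 0.0067 over all genes. Plac8 (3.07, adjusted p 6.7e-05) and Hp, haptoglobin (1.48 ± 0.37, adjusted p 0.0316), had the largest rises of the 4, Ptx3 (0.44, adjusted p 0.0068) and Cyba (0.21, adjusted p 0.04) also rose, and Ccl20, a chemokine with antimicrobial activity, fell (-1.56, adjusted p 0.000594). Of 19 inducing pathway genes 3 rose and 2 fell, with a median of 0.069. The neutrophil chemokine genes Cxcl5 (3.68 ± 0.29, adjusted p 3e-05) and Cxcl2 (0.59, adjusted p 0.00145) and the IL-1 receptor gene Il1r1 (0.30, adjusted p 0.0219) rose, and the C/EBP factor genes Cebpa (-0.35, adjusted p 0.0236) and Cebpd (-0.28, adjusted p 0.0252) fell. Cxcl5 led the fibroblast-like cluster with 4 EC-SAL and 295 EC-OVA cells, and the part of the cell mix in these changes was not tested. Of 8 receptors and targets, with a median of -0.0018, Slc22a17, a lipocalin 2 receptor, fell (-0.37, adjusted p 0.0236).

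In myeloid cells 323 of all 6506 genes tested rose and 408 fell, or 11.2% in either direction. Of 14 effectors tested, with a median of -0.13, 1 rose, Plac8 (4.32 ± 0.22, adjusted p 6.7e-08), and 3 fell, Retnla, for a resistin-like protein (-2.62 ± 0.46, adjusted p 0.00199), Wfdc17 (-0.57, adjusted p 0.0253) and Ccl20 (-1.35, adjusted p 0.0307). Of 16 inducing pathway genes 6 fell and none rose, with a median of -0.43 beside 0.015 over all genes. They include Cxcl2 (-2.20, adjusted p 2.9e-06), Cxcl1 (-2.22, adjusted p 4.6e-06), Tnf (-2.28, adjusted p 3.6e-05) and Cebpd (-0.83, adjusted p 0.000833). Cxcl1 was among the top 10 genes of the cluster led by Plau, which was 44.3% in EC-SAL and 12.8% in EC-OVA skin. Plac8 was a marker for naming monocyte-like cells, which were 3.79% and 14.3%. The part of the cell mix in the changes of these lists was not tested. Of 4 receptors and targets, with a median of -0.98, 2 fell, Tlr2, which senses bacterial lipoproteins (-1.21 ± 0.12, adjusted p 5.1e-05), and Cd36, a scavenger receptor (-1.29, adjusted p 0.0265).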

How the data were processed

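Single-cell RNA was measured in 3 EC-SAL and 3 EC-OVA libraries. The deposited values are counts of UMIs per gene and barcode. The authors used Cell Ranger and STAR with mm10, per the submitters' processing notes, and software version 3.1.0 stands in the matrix files, per the file headers. Every barcode had already at least 500 UMIs. The 10 members, the gene lists and the tests were chosen with earlier results of these data known.

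Cells with at least 300 genes and at most 15% mitochondrial UMIs were kept, and doublets were removed by Scrublet's highest scores, at 0.8% per 1000 barcodes, because its own threshold marked almost none. Cells were clustered in scanpy 1.11.5 (2000 variable genes, 40 components, 20 neighbours, Leiden clustering by igraph at resolution 1) without the members. Naming a cluster took 3 or more markers, none of them a member, that were seen in 25% of its cells or more and stood 2-fold or more above the median over clusters. A cluster with more markers of another class than of its own among its top 10 genes stayed unnamed. UMIs were summed per class and library and tested with edgeR 4.0.16 (quasi-likelihood, TMM, filterByExpr, prior count 0.125, Benjamini-Hochberg at 0.05), in R 4.3.3. Folds were tested only with at least 10 cells in each library. Standard errors are the log2 change over the root of F. On simulated counts 85%, 79% and 63% of genes changed by a log2 of 1 were recovered in keratinocyte-like, fibroblast-like and myeloid sums, and 5.76%, 8.72% and 7.32% of the calls were false. Shares of cells were tested after thinning to 1000 UMIs. Shares of cells printed without mention of thinning are not matched for depth. Intervals and upper limits (3 counts) cover counting error only.

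Alternatives were DESeq2 1.42.0, RLE scaling, no low-count filter, stricter and looser cell filters, other resolutions, doublets kept, members kept in the clustering, the same mix of clusters, the replicate number as a block and leaving out each library. Added after seeing the data were sums without the cell with the most UMIs of a member, sums within second-level names, myeloid cells with neutrophil-like cells, and further pairs of classes. Named genes are the 10 members and, of each list, up to 4 genes with the smallest p past the threshold in each direction and class. Promoter sequences are RefSeq's, and no protein sequence was used here. The genes most like Wfdc12 are not reported here.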

Additional observations from a re-analysis of the deposited data

Results flagged for a closer look

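The change of Defb6 with OVA differed between fibroblast-like and keratinocyte-like cells by a log2 of -1.71 in the test of the difference, and between cartilage and tendon-like and keratinocyte-like cells by -1.79. Fibroblast-like cells held only 34 and 32 of its UMIs in EC-SAL and EC-OVA skin, and cartilage and tendon-like cells 17 and 10.

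For Lcn2 the tested differences from keratinocyte-like cells were -1.14 in lymphatic endothelial-like, -2.19 in vascular endothelial-like and 1.91 in cartilage and tendon-like cells, and cartilage and tendon-like cells exceeded lymphatic endothelial-like cells by 3.03. For Slpi the change in cartilage and tendon-like cells exceeded that in keratinocyte-like cells by 0.87. For Wfdc12 the change in fibroblast-like cells was -2.24 against cartilage and tendon-like cells. All of these pairs other than fibroblast-like against keratinocyte-like cells were chosen after the values were seen.

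Barcodes that the cell filters left out held 543 UMIs of S100a8 and 870 of S100a9 in EC-OVA skin, against 20 and 41 in EC-SAL skin.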

How the results depend on the processing

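Lyz1 and Lyz2 in myeloid cells and Slpi in the sum of all cells kept their direction and their side of the threshold under every alternative run, and so did Slpi in keratinocyte-like cells except with the same mix of clusters. With that mix, 17 genes were called in keratinocyte-like (339 otherwise), 521 in fibroblast-like (974), 382 in myeloid (731) and 98 in dendritic and Langerhans-like cells (498), with 0 members in keratinocyte-like and 1 in fibroblast-like cells; fewer cells entered these sums. DESeq2 called 474, 342, 179 and 278 genes in fibroblast-like, myeloid, macrophage and monocyte-like (377) and dendritic and Langerhans-like cells. Doublets kept gave 517 genes and 1 member in fibroblast-like and 768 genes in dendritic and Langerhans-like cells. Resolution 1.5 gave 121 genes in macrophage and monocyte-like cells, which then held 34.5% of Lyz1 UMIs in EC-OVA skin and 52.8% (EC-SAL) and 34.3% (EC-OVA) of Lyz2 UMIs, against 49.2%, 65.0% and 66.7% as means of libraries. Without the low-count filter 684 genes were called in keratinocyte-like cells, 5 members in myeloid and 4 in dendritic and Langerhans-like cells, and 4, 1 and 2 members for the differences fibroblast minus keratinocyte, myeloid minus fibroblast and myeloid minus keratinocyte (1 for myeloid minus fibroblast with RLE). With neutrophil-like cells added, 5 members were called in myeloid cells, and without the cell with the most UMIs 1 in fibroblast-like cells. Shares of UMIs also moved with doublets kept, to 97.7% and 97.3% for Defb6 in keratinocyte-like cells, 5.21% for Slpi and 88.4% for Wfdc12 in EC-OVA fibroblast-like cells, and with looser cells, to 42.9% for Lcn2 in EC-SAL keratinocyte-like cells. The cause of these moves was not tested. With stricter cells no cluster was named neutrophil-like.

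Directions reversed only for differences that were not called. In keratinocyte-like cells S100a9 was 0.14 with looser cells and 0.29 with members kept in the clustering, Wfdc12 was -0.15 with the same mix, and Lyz2 was -0.025 with looser cells, -0.47 with the same mix and -0.047 with stricter cells. In fibroblast-like cells Defb6 was 1.02, Wfdc12 0.044 and Lyz2 -0.047 with doublets kept, Wfdc12 was 0.024 with the same mix, and Lyz2 was -0.0037 without the cell with the most UMIs. Slpi myeloid minus fibroblast was -0.0050 with RLE.

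With each library left out in turn, keratinocyte-like cells had 77 to 307 genes called, fibroblast-like cells 560 to 761, myeloid cells 449 to 634, macrophage and monocyte-like cells 207 to 371, and dendritic and Langerhans-like cells 296 to 419. There were 476 to 763 for fibroblast minus keratinocyte and 367 to 490 for myeloid minus fibroblast. Members called were 1 to 2, 0 to 2, 2 to 3, 1 to 3 and 2 to 2 in those classes, 1 to 4 in other classes, and 1 to 4, 0 to 1 and 0 to 2 for the differences fibroblast minus keratinocyte, myeloid minus fibroblast and myeloid minus keratinocyte. Log2 differences ran from -0.80 to 0.11 for S100a9, -0.023 to 0.47 for Wfdc12 and -0.66 to 0.47 for Lyz2 in keratinocyte-like cells, from -0.53 to 0.066 for Wfdc12 in fibroblast-like cells, from -0.0054 to 0.76 for Camp, -0.087 to 0.35 for Defb6 and -0.062 to 0.15 for Lcn2 in all cells, and from -0.35 to 0.81 for Slpi and -2.01 to 0.16 for Reg3g as myeloid minus fibroblast.

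The replicate numbers share only a number. Deviations of same-numbered libraries correlated at 0.16, 0.12 and 0.02 in keratinocyte-like cells, and not every library correlated best with its own number. With the replicate number as a block, 485, 1054 and 758 genes and 3, 2 and 3 members were called in keratinocyte-like, fibroblast-like and myeloid cells. Low counts limit Camp, Reg3g outside fibroblast-like cells and S100a8 outside neutrophil-like cells.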

Other observations

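Lyz2 was also counted in Schwann-like cells, with 1367, 1711 and 1158 CPM in EC-SAL and 1423, 843 and 649 CPM in EC-OVA skin. The groups overlapped, and the log2 difference was -0.56 ± 0.23 (adjusted p 0.853), in a class where 0% of genes were called. A Lyz2 UMI was seen in 18.3% and 17.4% of these cells, above the 1.79% and 2.55% of keratinocyte-like cells. Lyz1 there had 27 and 40 UMIs, with 6.25 to 122 CPM in the EC-OVA libraries.

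Over the group means of 14 classes with at least 10 cells in every library (28 points), which leaves out neutrophil-like cells, the genes most like a member were ranked by Pearson's r of log2(CPM + 1) over 10279 genes. The points share libraries and differ in depth, so the values are a description. Lyz1 and Lyz2 were each other's nearest gene (r 0.94), followed for both by Rassf4 (0.92 and 0.90). Defb6 was nearest to Serpinb3b (0.89), Serpinb12 (0.86) and Tmprss4 (0.86), and Lcn2 to Syn2 (0.91), Arhgap8 (0.86) and Fzd6 (0.85). Slpi, spread over several classes, had its highest value with Dsg2 (0.80).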
